A study of Mus musculus with 2 samples.

Results

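The genes described here encode the neurotrophin ligands Bdnf and Ntf3, their receptors Ntrk2, Ntrk3 and Ngfr, the GDNF family ligand Gdnf, its signalling receptor Ret and the co-receptors Gfra1 and Gfra2. They are 9 genes, read by 14 of the 41174 probes on the array, and 8 of them were among the 15266 genes tested. All probes that carry the symbol of a listed gene, or an older alias by gene ID, were taken, and the gene list was chosen on earlier results of this same contrast. Their values are therefore given as a description, with no test.

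Neurotrophins are secreted growth factors best known for keeping neurons alive. They signal through the Trk receptor tyrosine kinases and through the p75 neurotrophin receptor, the product of Ngfr. GDNF binds a lipid-anchored co-receptor of the GFRA family and signals through the receptor tyrosine kinase RET; in the testis, Sertoli cells secrete GDNF, and the spermatogonial stem cells that answer it carry GFRA1 and RET.

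The tissue was the embryonic male gonad (strain MCH, embryonic day 14.5) of mice with a transgene of the Nanos2 enhancer, 3xFLAG-tagged Nanos2 and the Nanos2 3'UTR. Nanos2 is an RNA-binding protein of male germ cells, and its enhancer is the part of the transgene meant to place the tagged protein in those cells. RNA recovered with agarose beads that carry the M2 antibody against FLAG (FLAG IP) was set against RNA taken without an antibody step (input), with 2 one-colour Agilent arrays per group. Both groups carried the transgene, and a precipitation from gonads without it was not analysed here. The series text calls the duplicates biological, but no label says which gonads entered each, so the p-values below measure the spread between these arrays.

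The signals are given as a percentage of each array's 75th percentile, which was 55.7 and 608 intensity units in FLAG IP replicates 1 and 2, against 1026 and 1038 in input replicates 1 and 2. FLAG IP replicate 1 was thus the dimmest array, with 42.7% of its spots well above background, against 65.4% in FLAG IP replicate 2 and 66.0% and 70.2% in the input. The dimmest probe well above background stood at 14.7% of the 75th percentile there, against 1.60%, 1.43% and 0.933% on FLAG IP replicate 2 and input replicates 1 and 2. Nanos2 itself read 148% and 122% in the FLAG IP, against 39.8% and 33.7% in the input, a log2 difference of 1.88 ± 0.20 (SE); its probe does not separate the transgene from the endogenous transcript. Signals are compared for the same probe only, because probes differ in how brightly they report a transcript. The input is RNA of bulk tissue, where few cells of a type and little RNA per cell cannot be told apart. The FLAG IP is RNA recovered from such tissue with beads, so its difference from the input is no measure of either.

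Among the 8 genes tested, Ntrk2, Ntf3 and Gfra1 passed the threshold as higher in the FLAG IP, Ngfr, Gfra2 and Gdnf passed it as lower, and Ntrk3 and Bdnf did not pass. Of all genes tested, 28.0% were called higher and 25.4% lower (limma, adjusted p under 0.05), and since the contrast chose the list nothing is read from the 3 and 3 calls. Both FLAG IP arrays lay above both input arrays for 7 of the 14 probes and below both for 5, and 2 probes overlapped. Over all 41166 probes with a value on every array these shares were 47.5% above and 24.1% below. The median log2 difference was -0.10 over the 9 genes with Ret included, -0.15 over the 8 genes without it, and 0.07 over all genes tested. The tested probes of Gfra1, Gfra2 and Gdnf were not well above background on FLAG IP replicate 1, so only FLAG IP replicate 2 measured them above background in that group. The 7 probes above the input include the Ret probe and 1 Gfra1 probe that were below background on every array. All differences are relative to the scaling of each array, since with no scaling the median over all genes shifted to -2.41.

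Ntrk2 encodes TrkB, the receptor tyrosine kinase for BDNF and neurotrophin 4. Its brightest probe, A_51_P393454, is printed at 10 spots on each array, and it read 299.5% and 168% of the 75th percentile in FLAG IP replicates 1 and 2, against 11.95% and 13.85% in input replicates 1 and 2. Both FLAG IP arrays were far above both input arrays, and all 4 arrays were well above background. The log2 difference was 4.13 ± 0.34 (SE), a 17.4-fold higher signal in the FLAG IP, and 4.54 and 3.71 in replicates 1 and 2 taken alone. With normexp background correction in place of the processed signal it was 3.26.

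The 10 spots of that probe show how little of the difference lies within an array. They ranged between 274.5% and 354% on FLAG IP replicate 1, where 1 spot marked as an outlier was left out, and between 159.7% and 175% on FLAG IP replicate 2. The input spots ranged between 10.8% and 13.9% on replicate 1 and between 13.1% and 14.4% on replicate 2. The spots of the FLAG IP arrays did not overlap each other, so these arrays differed from each other by more than the spread of the spots. Spots of one array are technical repeats of 1 sample and were counted as such.

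The other Ntrk2 probes were also higher in the FLAG IP, by a smaller amount. Probe A_51_P516012, again at 10 spots, read 36.6% and 33.2% in the FLAG IP, against 13.75% and 13.6% in the input. Probe A_51_P516006, at 1 spot, read 74.2% and 55.3% in the FLAG IP, against 26.0% and 24.4% in the input. In both probes each FLAG IP array stood above each input array, and all arrays were well above background. Their log2 differences were 1.35 ± 0.16 and 1.35 ± 0.22 (SE), or 2.55-fold and 2.54-fold.

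The Ntrk2 probes thus disagreed on the size of the difference and not on its direction by the scaled signal; with no scaling, where all genes shifted by -2.41, the smaller pair turned to -1.14 each. The gap between the largest and the smallest log2 difference was 2.78, where the median gap over the 5941 genes with more than 1 probe tested was 0.64. A gap at least as wide was found in 173 of those genes (2.91%), and in 64 of the 1242 genes with 3 probes. The array file assigns A_51_P393454 and A_51_P516012 to different RefSeq transcripts of Ntrk2 and A_51_P516006 to a complementary DNA clone. Ntrk2 is known to give rise to a full-length kinase receptor and to truncated forms without the kinase, and the tables used here do not say which form each probe reads. The ratio of FLAG IP to input in the authors' deposited table was 16.05 for A_51_P393454, 2.34 for A_51_P516006 and 2.46 for A_51_P516012.

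**Figure D1:**
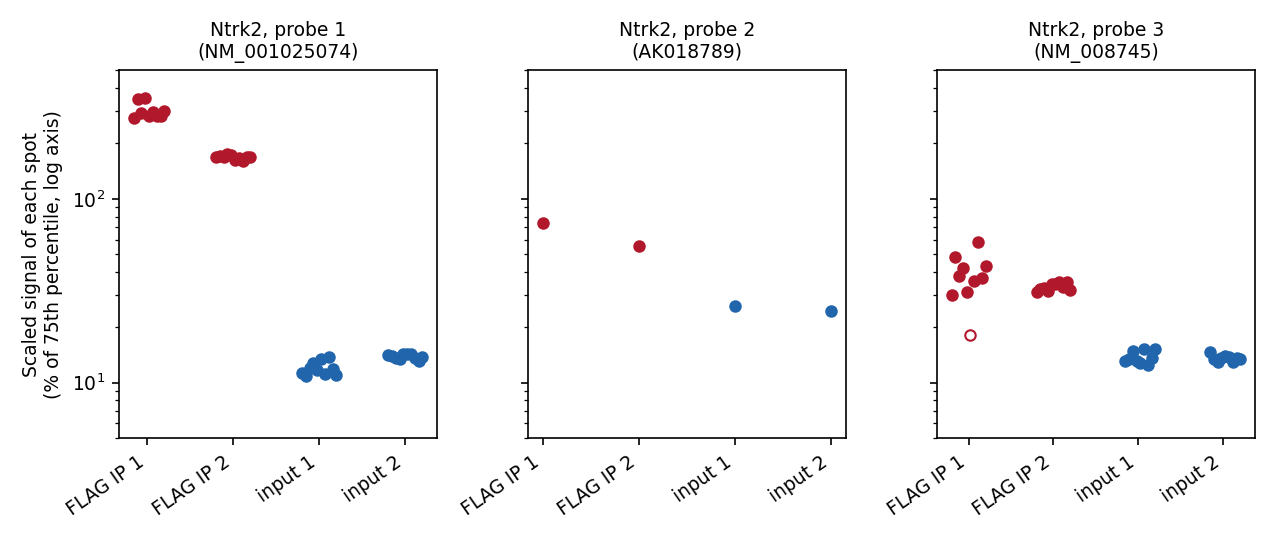
Each point is 1 spot of the 3 Ntrk2 probes, as percent of the array's 75th percentile on a log axis, for FLAG IP replicates 1 and 2 and input replicates 1 and 2; the panels show A_51_P393454, A_51_P516006 and A_51_P516012 from left to right, and the open point is a spot not well above background. The spots of A_51_P393454 lie between 159.7% and 354% on the FLAG IP arrays and between 10.8% and 14.4% on the input arrays, a far wider separation than in the other probes.

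Ntrk3 encodes TrkC, the receptor for neurotrophin 3. Its single probe read 3.70% and 5.88% in the FLAG IP, against 5.86% and 4.89% in the input. The groups overlapped, and the signal on FLAG IP replicate 1 was not well above background. Its log2 difference was -0.20 ± 0.30 (SE), but 1.31 with normexp and -1.63 with quantile normalization, so its direction depended on the processing.

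Ngfr encodes the p75 neurotrophin receptor, which binds all mature neurotrophins and, with sortilin, their precursors. It was the member with the most negative difference. Probe A_52_P236448 read 447% and 255% in the FLAG IP, against 1430% and 1282% in the input, with both FLAG IP arrays well below both input arrays. The log2 difference was -2.00 ± 0.33 (SE), so the input signal was 4.01-fold that of the FLAG IP.

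The 10 spots of that probe ranged between 392% and 529% on FLAG IP replicate 1 and between 245% and 263% on FLAG IP replicate 2, against 1378% to 1532% and 1247% to 1306% on input replicates 1 and 2. No spot of a FLAG IP array reached the lowest spot of an input array. The other Ngfr probe, A_51_P384968, read 3.99% and 6.51% in the FLAG IP, against 20.2% and 19.8% in the input, and was not well above background on FLAG IP replicate 1. Its log2 difference was -1.97 ± 0.30 (SE), but 0.10 with normexp and -3.31 with quantile normalization, where the first probe gave -2.44 and -1.90. In replicates 1 and 2 alone it was -2.33 and -1.62, against -1.60 and -2.41 for the first probe.

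Bdnf encodes brain-derived neurotrophic factor, a ligand of TrkB. Its brighter probe, A_51_P261991, read 13.05% and 9.53% in the FLAG IP, against 11.7% and 12.2% in the input, and the groups overlapped. None of its 10 spots was well above background on FLAG IP replicate 1, where they ranged between 6.06% and 20.2%. This gave a log2 difference of -0.10 ± 0.23 (SE), and 0.90 with normexp. The other probe, A_52_P384100, read 4.0% and 5.0% in the FLAG IP, against 5.47% and 5.28% in the input. There both FLAG IP arrays were below both input arrays, with FLAG IP replicate 1 not well above background, and the log2 difference was -0.26 ± 0.19 (SE), but 1.29 with normexp and -1.66 with quantile normalization.

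Ntf3 encodes neurotrophin 3, the ligand of TrkC. Its single probe read 32.5% and 28.9% in the FLAG IP, against 15.8% and 17.7% in the input. All 4 arrays were well above background, and both FLAG IP arrays stood above both input arrays. Ntf3 had a log2 difference of 0.88 ± 0.18 (SE), or 1.83-fold, and -1.61 with no scaling, which is 0.80 above the median of all genes under that setting. Ntf3 was thus higher in the FLAG IP while the signal of its receptor Ntrk3 overlapped between the groups.

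**Figure D2:**
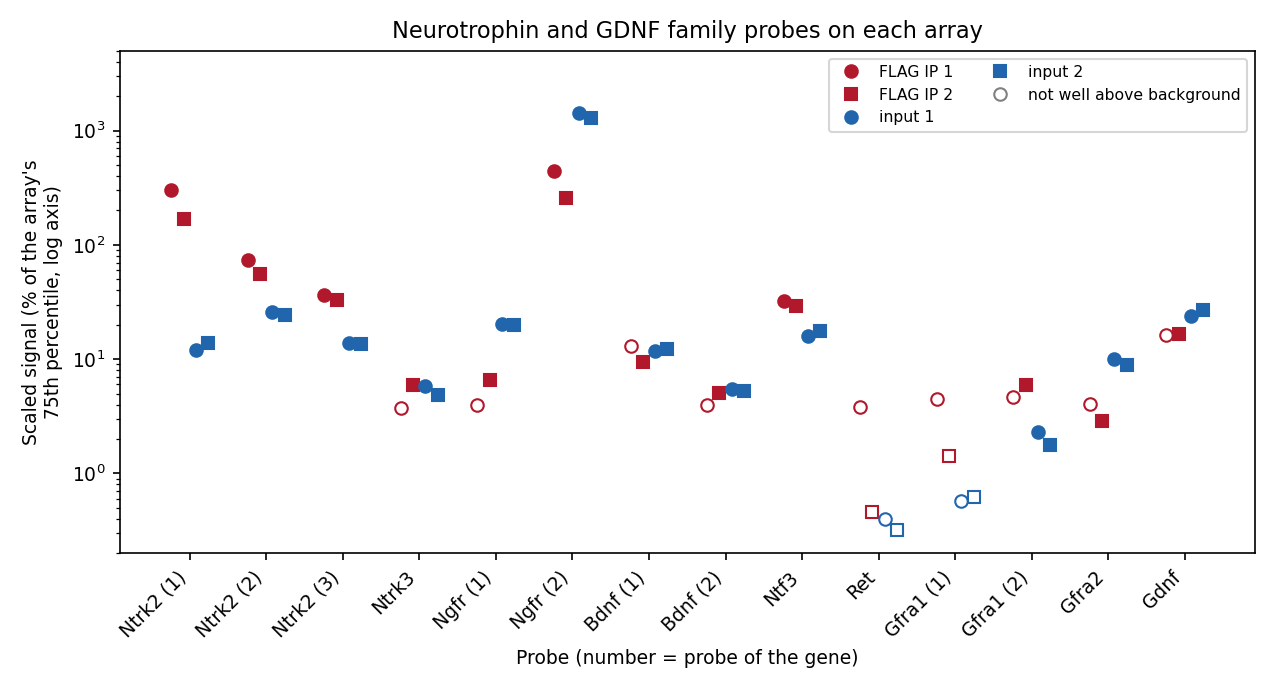
Signal of each of the 14 probes as percent of the array's 75th percentile, on a log axis, with FLAG IP arrays left of input arrays; filled points are well above background and open points are not, and a number in brackets marks the probe of a gene in order of probe ID. The FLAG IP points stand above the input points for Ntrk2, Ntf3 and Gfra1 and below them for Ngfr, Gfra2 and Gdnf, and the open points belong to FLAG IP replicate 1, to Ret and to 1 of the Gfra1 probes. With normexp, 6 probes change side (Ntrk3, the dimmer Ngfr probe, both Bdnf probes, Gfra2 and Gdnf); with no scaling, where all genes shift by -2.41, the 2 smaller Ntrk2 differences, Ntf3, Ret and both Gfra1 probes do.

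Gdnf encodes glial cell line-derived neurotrophic factor. Its single probe read 16.3% and 16.7% in the FLAG IP, against 23.8% and 27.1% in the input. Both FLAG IP arrays were below both input arrays, and the first of them was not well above background. The log2 difference was -0.62 ± 0.17 (SE), and with normexp it was 0.42, of the opposite sign.

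Ret encodes the receptor tyrosine kinase shared by the GDNF family ligands. Its probe was not well above background on any array, at any of its 10 spots. It read 3.84% and 0.458% in the FLAG IP, against 0.395% and 0.317% in the input. Those signals have no order that can be read, no fold is given, and Ret was not among the genes tested. The higher reading on FLAG IP replicate 1 lies under the 14.7% of the dimmest probe well above background on that array.

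Gfra1 encodes the co-receptor that presents GDNF to RET. Probe A_52_P398998 read 4.63% and 5.88% in the FLAG IP, against 2.31% and 1.78% in the input. Both FLAG IP arrays stood above both input arrays, but the first of them was not well above background. This probe had a log2 difference of 1.36 ± 0.24 (SE), or 2.57-fold, but 0.35 with quantile normalization and -1.13 with no scaling, the last being 1.29 above the median of all genes. The other probe, A_52_P311022, read 4.46% and 1.42% in the FLAG IP, against 0.578% and 0.615% in the input, and was not well above background on any array.

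Gfra2 encodes the preferred co-receptor of neurturin. Its single probe read 4.03% and 2.88% in the FLAG IP, against 10.0% and 8.85% in the input. Both FLAG IP arrays were below both input arrays, and FLAG IP replicate 1 was not well above background. The log2 difference was -1.47 ± 0.24 (SE), with an input signal 2.77-fold that of the FLAG IP, and it was 0.78, of the opposite sign, with normexp and -2.75 with quantile normalization.

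**Figure D3:**
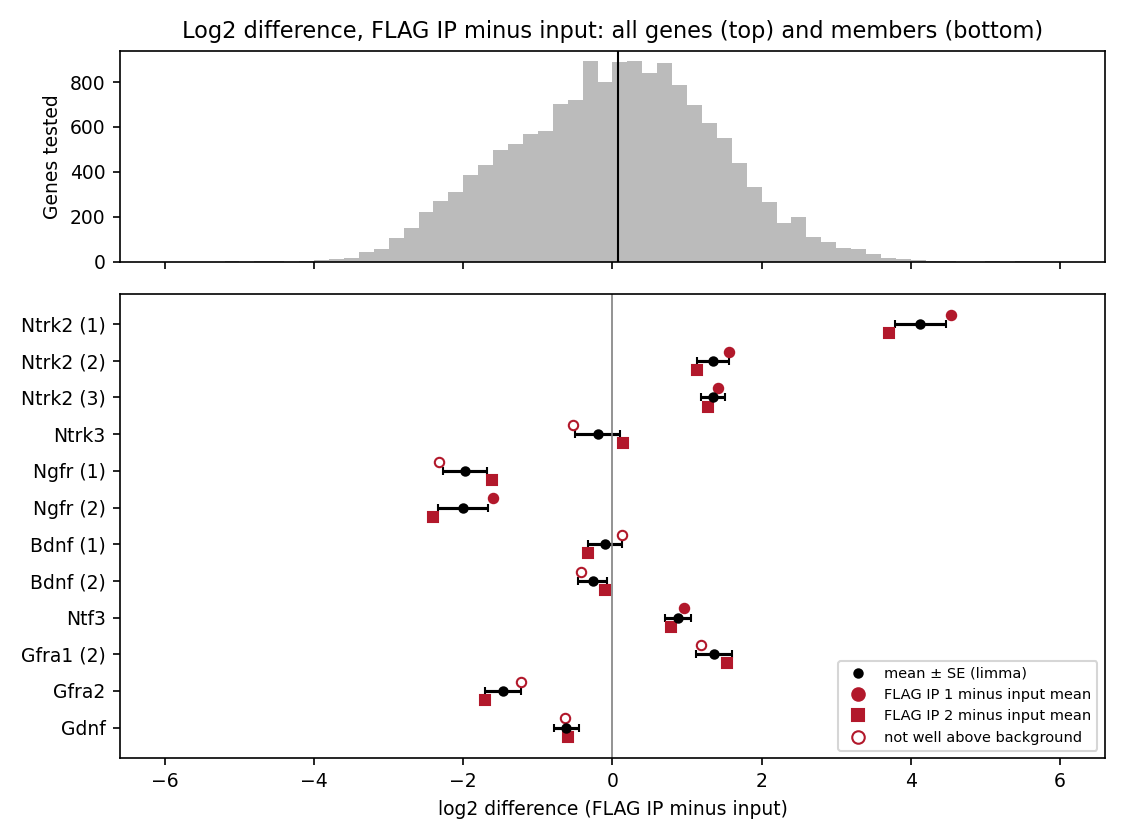
The top panel is a histogram of the log2 difference of FLAG IP minus input over the 15266 genes tested, with the median of 0.07 as a line; the bottom panel shows the same difference for the 12 probes that passed the filter, with the SE as a bar, and FLAG IP replicates 1 and 2 each minus the input mean in red, open where not well above background. The differences run from -2.00 in Ngfr to 4.13 in Ntrk2, and the probes of Ntrk2 are spread by 2.78; with normexp, 6 probes change side (Ntrk3, the dimmer Ngfr probe, both Bdnf probes, Gfra2 and Gdnf), and with no scaling, where all genes shift by -2.41, the 2 smaller Ntrk2 differences, Ntf3 and Gfra1 do.

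Input replicate 1 lay on one slide and the other arrays on another, so only the second slide allowed a comparison. Within it, which is also the fit with slide as a block, the log2 difference was 4.02 for Ntrk2 probe A_51_P393454, -1.92 for Ngfr probe A_52_P236448 and 0.80 for Ntf3.

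Over the 4 arrays, the tested genes with scaled log2 values nearest to those of the brightest Ntrk2 probe were Grhl1, Gch1 and Lhx2, at Euclidean distances of 0.70, 0.75 and 0.91. Gch1, which encodes the first enzyme of tetrahydrobiopterin synthesis, read 241% and 161% in the FLAG IP, against 17.2% and 18.7% in the input. Nearest to Ngfr were Timp3 (0.20), Cd248 (0.22) and Pmp22 (0.25). Timp3, which encodes an inhibitor of matrix metalloproteinases, read 418% and 254% in the FLAG IP, against 1390% and 1440% in the input. The distance uses both level and difference, and only 4 arrays stand behind it.

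The other genes of these pathways were described in 6 lists of 88 genes, taken from textbook knowledge with earlier results of these data known. A probe was found for 85 and 79 were tested. Of these, 22 were higher in the FLAG IP, 22 were lower and 35 did not pass the threshold, against 28.0% higher and 25.4% lower of all genes, with a median log2 difference of 0.03. With normexp 7 were higher and 11 lower, and within the second slide 9 were higher and 10 lower. Of the 44 calls, 11 held under every alternative with 1 value per gene, apart from no scaling. With no scaling 0 of the 79 passed. The 11 were Sorcs2, Pcsk5, Pcsk6, Ncam1, Dok1, Sos1, Irak1, Bcl6b, Lhx1, Pou3f1 and Ccnd2. The fit on single probes was not part of that count. In it, 1 of 2 tested probes of Sorcs2 and of Sos1 kept the call, 3 of 6 of Ncam1 and 3 of 4 of Pcsk5. For the rest of the 11 every tested probe kept it. The adjusted p-values below are from limma over all genes tested.

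The remaining neurotrophins, their receptors and the proteins that process or sort them had 9 genes tested, of which 1 was higher and 5 were lower, with a median of -1.5. Ntf5, which encodes neurotrophin 4, the other ligand of TrkB, was lower by a log2 difference of -1.5 ± 0.17 (SE, adjusted p = 0.00511). Sorcs2, which encodes a sortilin family receptor that pairs with p75, read 56.6% and 49.5% in the FLAG IP, against 413% and 416% in the input (-2.97 ± 0.17 SE, adjusted p = 0.00381). Of its 2 tested probes, 1 was called lower in the fit on single probes. Pcsk5 and Pcsk6, proprotein convertase genes, were lower by -2.41 and -2.33. Sort1, which encodes sortilin, was higher by 1.46 ± 0.41 (SE, adjusted p = 0.0452). That call was lost with normexp, quantile normalization and median centring. In the fit on single probes, 1 of the 4 tested Sort1 probes was called higher.

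The remaining GDNF family ligands and receptors had 6 genes tested, 1 higher and 3 lower, with a median of -0.48. Nrtn, which encodes neurturin, the preferred ligand of GFRA2, read 32.5% and 33.8% in the FLAG IP, against 105% and 105% in the input (-1.67 ± 0.16 SE, adjusted p = 0.00404). Ncam1, which encodes an adhesion molecule that can also serve as a GDNF receptor, was lower by -2.75 ± 0.31 (SE, adjusted p = 0.00515). Gfra3, the artemin co-receptor gene, was lower by -0.61 (adjusted p = 0.0491), a call lost with normexp, where the difference was 0.06. Gdf15, whose product signals through RET with another co-receptor, was higher by 0.96 (adjusted p = 0.0113). Artn and Pspn were not tested.

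The adaptors and effectors that Trk and RET receptors recruit had 27 genes tested, 9 higher, 6 lower and 12 not past the threshold, with a median of 0.13. The docking protein gene Frs2 read 1590% and 1680% in the FLAG IP, against 491% and 483% in the input (1.75 ± 0.16 SE, adjusted p = 0.00398). Grb2, an adaptor gene, was higher by 1.63, Sos1 and Sos2, which encode the Ras exchange factors that GRB2 carries, by 1.83 and 1.5, and Kidins220, which encodes a scaffold of Trk receptors, by 1.56. On the other side were Shc1, an adaptor gene of activated Trk receptors, at -0.97, Pik3r1, which encodes the regulatory subunit of phosphoinositide 3-kinase, at -1.86, and Dok1, a docking protein gene, at -2.49. Plcg1 and Ptpn11 did not pass the threshold, at 0.03 and -0.01. In the fit on single probes, 1 of the 3 tested Ptpn11 probes was called lower.

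The partners of the p75 receptor had 18 genes tested, 3 higher and 7 lower, with a median of -0.37. Irak1, a kinase gene, read 22.9% and 49.0% in the FLAG IP, against 314% and 257% in the input (-3.09 ± 0.43 SE, adjusted p = 0.00771). Bex3 and Maged1, which encode proteins that bind the intracellular part of p75, were lower by -1.72 and -1.37, and Psen2, which encodes a presenilin of the gamma-secretase that cuts p75, by -1.30. Higher in the FLAG IP were Prdm4 (1.73), Ripk2 (1.44) and Traf6 (0.92). The Traf6 call was lost with normexp and with the mean of its probes, and 1 of its 2 tested probes was called higher.

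The inhibitors of Trk and RET signalling had 9 genes tested, 3 higher and 0 lower, with a median of 0.67; at an unadjusted p under 0.05 limma gave 5 higher and 0 lower, and all 3 calls were lost with normexp. Lrig2 read 1300% and 1150% in the FLAG IP, against 220% and 225% in the input (2.46 ± 0.17 SE, adjusted p = 0.00381). Lrig3 and Spred2 were higher by 1.06 and 1.0. Sprouty genes Spry1 and Spry2 had differences of 0.67 and 1.09 and did not pass the threshold. The other tested Spry2 probe went the other way and was called lower in the fit on single probes.

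The genes that GDNF regulates in spermatogonial stem cells all had a tested probe, 10 in number, with 5 higher, 1 lower and a median of 0.69. Lhx1, a LIM homeobox gene, read 81.4% and 34.5% in the FLAG IP, against 5.68% and 6.35% in the input (3.14 ± 0.46 SE, adjusted p = 0.00881). Bcl6b, a transcriptional repressor gene, read 161% and 188% in the FLAG IP, against 38.8% and 35.9% in the input (2.22 ± 0.18 SE, adjusted p = 0.00381). The POU factor gene Pou3f1, the chemokine receptor gene Cxcr4 and Id4 were higher by 2.07, 1.60 and 0.88. The cyclin gene Ccnd2 was lower, with 308% and 235% in the FLAG IP, against 1800% and 1740% in the input (-2.72 ± 0.21 SE, adjusted p = 0.00381). Etv5 and Etv4 had differences of 0.43 and 0.13 and did not pass.

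**Figure D4:**
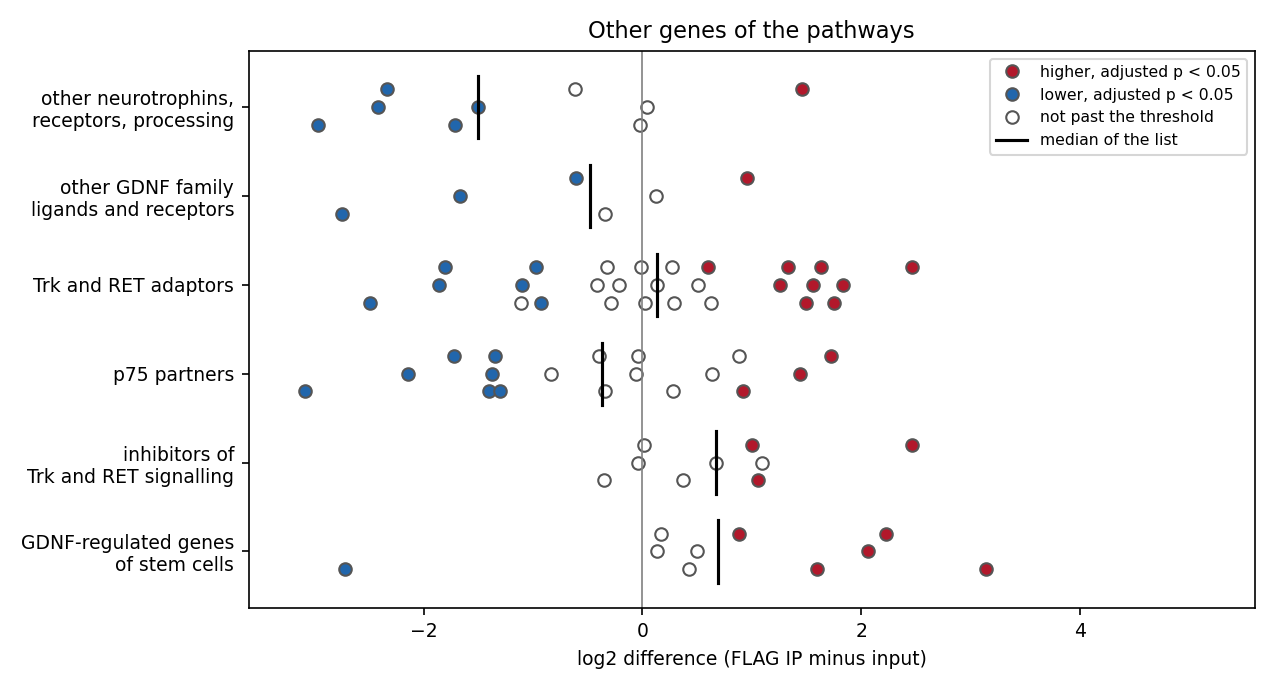
Each point is 1 tested gene of the 6 pathway lists, placed by its log2 difference of FLAG IP minus input; red points are higher and blue points lower at an adjusted p under 0.05 (limma), open points did not pass, and the black line is the list's median. Medians run from -1.5 in the neurotrophin list to 0.69 in the GDNF-regulated genes.

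Cell type markers moved between the same arrays. All 8 Sertoli cell, all 6 Leydig cell and all 7 interstitial mesenchyme markers were lower in the FLAG IP, and 3 of 8 germ cell markers (Ddx4, Dazl and Tdrd1) were higher and 1 (Dnd1) lower. Of the 5 endothelial markers, 2 (Cdh5 and Tie1) were lower and 3 did not pass, and with normexp 0 were called. The summed signal, in units of the 75th percentile, was 8.36 and 9.14 in the FLAG IP, against 46.4 and 45 in the input, for Sertoli cells, and 41.6 and 29.1 against 208 and 200 for the mesenchyme, whose sums carry Col1a1 and Col3a1. For germ cells it was 160 and 181 in the FLAG IP, against 88.5 and 94.0 in the input. With normexp, lower calls numbered 3 of 8 for Sertoli markers. Of the germ cell calls only that of Ddx4 then held, and those of Dazl, Tdrd1 and Dnd1 were lost. Within the second slide, where the input has 1 array, fewer Sertoli and germ cell calls held. There the call of Dazl held and those of Ddx4, Tdrd1 and Dnd1 were lost. The part of these shifts in the lower signal of Ngfr, Gfra2 and Gdnf was not tested.

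Neurons and neural crest cells also use these receptors. Of the 8 neuronal markers 6 were tested, and Phox2a, Stmn2, Elavl4 and Snap25 were higher in the FLAG IP; the summed signal was 4.99 and 3.72 in the FLAG IP, against 2.29 and 2.57 in the input. Elavl4 read 237% and 228% in the FLAG IP, against 22.2% and 22.0% in the input, and Th was not well above background often enough to be tested. Of the 7 neural crest and glial markers tested, Sox10 was lower (-1.35, limma adjusted p = 0.00900) and the other 6 did not pass. The Sox10 call was lost with normexp, where the difference was -0.22, and with the mean of its probes. Of its 2 tested probes, 1 was called lower in the fit on single probes. The summed signal of the 7 markers was 1.12 and 0.572 in the FLAG IP, against 1.36 and 1.31 in the input. The part of these markers in the signals of Ntrk2 and Ngfr was not tested.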

How the data were processed

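RNA of male gonads was hybridised to 4 one-colour arrays, 2 per group, from 0.20 µg of RNA per the labels. The submitters' processing notes name Agilent Feature Extraction 9.5. The deposited scanner files hold the background-corrected intensity of 43379 non-control spots per the file headers. A table by the authors holds a FLAG IP to input ratio, a raw signal intensity and a p-value per probe; its raw signals equal group means of the processed signals within 1% for 41089 (FLAG IP) and 41122 (input) of 41174 probes, so only the ratio is quoted; the p-value deposited by the authors entered no result. The presence marks and the input ratio column of that table also entered no result.

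Values here are log2 of the deposited intensity minus each array's 75th percentile. Spots marked as outliers were left out (90 and 104 on the FLAG IP arrays, 61 and 52 on the input arrays), and spots of a probe were averaged. A probe was well above background on an array if at least 50% of its spots were. Probes well above background on both arrays of a group entered, and the brightest stood for its gene. No spot was saturated. Of the probes, 31004 were named by gene ID in the RefSeq table of GRCm38.p6, 309 by an older symbol, 1263 by the file's symbol and 8598 not at all.

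FLAG IP and input were compared with limma 3.58.1 in R 4.3.3 (two-sided, no block, 2 residual and 2.08 prior degrees of freedom), adjusted by Benjamini-Hochberg over 15266 genes at a threshold of 0.05; member SEs come from the same fit on probes. The method was tested on simulated data. The number of arrays limits the precision. The members and lists were chosen with earlier results of these data known. Named are all members with every probe, Nanos2, genes of the lists, and the 3 tested genes nearest to the highest and to the lowest member, leaving out clone and locus names; some genes of the lists are not reported here by name. No coordinates are given, since the array and the table refer to different builds. Alternatives were another background correction (normexp, offset 50, on the median signal), scalings, filters, probe rules, outlier spots kept, eBayes with trend, slide or array number as a block, and leaving out each array.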

Additional observations from a re-analysis of the deposited data

How the results depend on the processing

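Of 201 values of single member probes under the alternatives, 169 stayed within 1 SD of the reported value. That count is no measure of stability, since many of these values could not move by that much. Filters, probe rules and the array-number block left a single probe's value as it was. Leaving out 1 of 2 arrays, which also covers the slide block, cannot shift a difference by 1 SD. The sign changed in 14 of the 201 values: 6 with normexp, 6 with no scaling and 2 with 1 array left out. The last 2 were Ntrk3 at 0.14 without FLAG IP replicate 1 and Bdnf at 0.13 without FLAG IP replicate 2. With normexp, Gfra2 was 0.78 and Gdnf 0.42; all genes then shifted by 0.38 in the median, and relative to it these values were 0.40 and 0.04. The others were Ntrk3, the dimmer Ngfr probe and both Bdnf probes, at 1.31, 0.10, 0.90 and 1.29. With no scaling Ntf3 was -1.61 and Gfra1 -1.13, where all genes shifted by -2.41. The remaining changes were the smaller Ntrk2 differences at -1.14, the dimmer Gfra1 probe and Ret. Ret and that Gfra1 probe were below background on every array, so their change of sign cannot be read. The median of the members was 1.11 with normexp, -2.59 with no scaling, 0.39 with every probe on its own, 0.88 over probes well above background on all 4 arrays, and -0.07 to 0.14 with 1 array left out.

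Genes called higher and lower numbered 1272 and 1398 with normexp, 1431 and 1545 with slide as a block, and 0 and 0 in limma with no scaling, where 0 and 4047 had an unadjusted p under 0.05. Leaving out 1 array gave 1431 to 6845 higher and 1545 to 6212 lower: 6204 and 6212 without FLAG IP replicate 1, 6845 and 5705 without FLAG IP replicate 2, 1431 and 1545 without input replicate 1, and 1535 and 1727 without input replicate 2. With every probe on its own, 29 probes of the pathway genes were called higher and 37 lower, which counts probes and not genes. Pathway genes higher and lower numbered 7 and 11 with normexp and 0 and 0 with no scaling, and fell in number with slide as a block. They ranged over 8 to 38 and 10 to 32 with 1 array left out.

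Array numbers did not pair the arrays: same-numbered deviations correlated at r = 0.05 over genes. With array number as a replicate block, 4130 genes were higher and 3875 lower, with 22 and 22 of the pathway genes, and the median of the members was -0.10. Signal over background limits the members on FLAG IP replicate 1, where 9 of the 14 probes were not well above it. The causes of these shifts were not tested.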
